A study of Mus musculus with 13 samples.

Results

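The 44 genes described here are the mouse WNT ligands, their Frizzled and Lgr receptors, the R-spondins and the secreted antagonists. They were taken from the 24421 genes of the count table by symbol, as every Wnt, Fzd, Rspo, Dkk and Sfrp gene with a number after the family name plus Lgr4, Lgr5 and Lgr6. They comprise 19 Wnt, 10 Fzd, 4 Rspo, 4 Dkk, 4 Sfrp and 3 Lgr genes. RNA was sequenced from 13 frozen tissues of female FVB/N-TgN (MMTV-HER2/neu) mice, line 202Mul/J. This line carries a rat HER2/Neu cDNA that the MMTV promoter (from the mouse mammary tumor virus) drives in breast epithelium, although the genotype label reads wild type. The paper does not say separately whether the mice that gave the glands carried it. There were 3 primary tumors from untreated mice, 3 primary tumors from mice drinking stavudine (STV, a nucleoside inhibitor of reverse transcriptase, 1 mg/mL, an estimated 200 mg/kg per day), 3 tumors that regrew after 17-DMAG (an Hsp90 inhibitor, 20 mg/kg by intraperitoneal injection 3 times a week), 2 that regrew after 17-DMAG with STV, and 2 mammary glands from untreated mice. In the paper's protocol the 17-DMAG injections went on during regrowth, up to the tumor size at which mice were sacrificed. Recurrence and ongoing 17-DMAG therefore cannot be told apart in the recurrent tumors. STV was started at 2 months of age or, together with 17-DMAG, once tumors had appeared. The paper describes the primary STV tumors as having developed in mice already on STV, which in its design was the start at 2 months. The labels do not say which start applied to each recurrent DMAG+STV tumor. The ages of the sampled mice were not given in the sources used here.

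WNT ligands are lipid-modified secreted proteins that bind Frizzled receptors, either to stabilize β-catenin or to act through branches that do not use it. R-spondins bind Lgr4, Lgr5 and Lgr6 and keep the ubiquitin ligases Znrf3 and Rnf43 from removing Frizzled receptors, which raises the response to a given amount of ligand. Of the Dkk proteins, Dkk1, Dkk2 and Dkk4 act on the Lrp co-receptors, and Sfrp proteins bind the ligands themselves. In the mouse mammary gland the pathway maintains basal and stem-like cells, and Wnt1, Wnt3, Wnt10b, Rspo2 and Rspo3 are known as genes that MMTV proviruses activate in virus-induced mammary tumors. The question addressed was which of these genes the HER2/neu tumors expressed, whether single tumors carried outlying ligand levels, and whether levels differed between the treatment groups.

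Each library held 39921388 to 56887708 counts, so that 3 counts in a tumor corresponded to 0.0587 to 0.0695 CPM (counts scaled to library size with TMM factors). Gland 2 had a TMM factor of 0.493 against 0.999 to 1.12 in the other libraries, and its 6 milk protein genes summed to 577913 CPM against 22019 CPM in gland 1. Recurrent DMAG tumor 1 stood apart from the other tumors, with 8 fibroblast and stroma markers summing to 5787 CPM against 281 to 1913 CPM in the other 10. The 6 luminal epithelial markers summed to 1412 to 2966 CPM in the tumors and to 1898 and 2431 CPM in the glands. They were highest in recurrent DMAG tumor 1 and lowest in recurrent DMAG+STV tumor 2. In these bulk samples, fewer cells of a type and less RNA per cell cannot be told apart.

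Frizzled receptors, Lgr4 and Sfrp1 made up most of the expression, and few ligands were expressed. A tumor median of 1 CPM or more was reached by 22 of the 44 genes, which were 5 of 19 Wnt, 1 of 4 Rspo, 9 of 10 Fzd, 2 of 3 Lgr, 2 of 4 Dkk and 3 of 4 Sfrp genes. Another 15 genes were under 1 CPM in every tumor, and 10 of them were Wnt genes. Per kilobase of exon (RPKM), the highest tumor medians were those of Lgr4 with 22.1, Fzd7 with 16.9, Fzd6 with 16.8, Sfrp1 with 15.2 and Fzd9 with 12.2 RPKM. The ranges over the 11 tumors of these 5 levels overlapped, so that their order did not separate neighbours. The leading ligand was Wnt5b at 5.55 RPKM (2.42 to 23.2 over the tumors), followed by Wnt5a at 3.11 RPKM. Both are known mainly for signaling that does not use β-catenin. Rspo3 led the R-spondins with a median of 0.426 RPKM, and Dkk3 led the Dkk genes with 0.764 RPKM. By tumor, Fzd7 ranged from 48.2 CPM in primary STV tumor 2 to 196 CPM in recurrent DMAG tumor 1, and Dkk3 from 1.18 CPM in primary STV tumor 3 to 9.40 CPM in recurrent DMAG tumor 1.

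**Figure D1:**
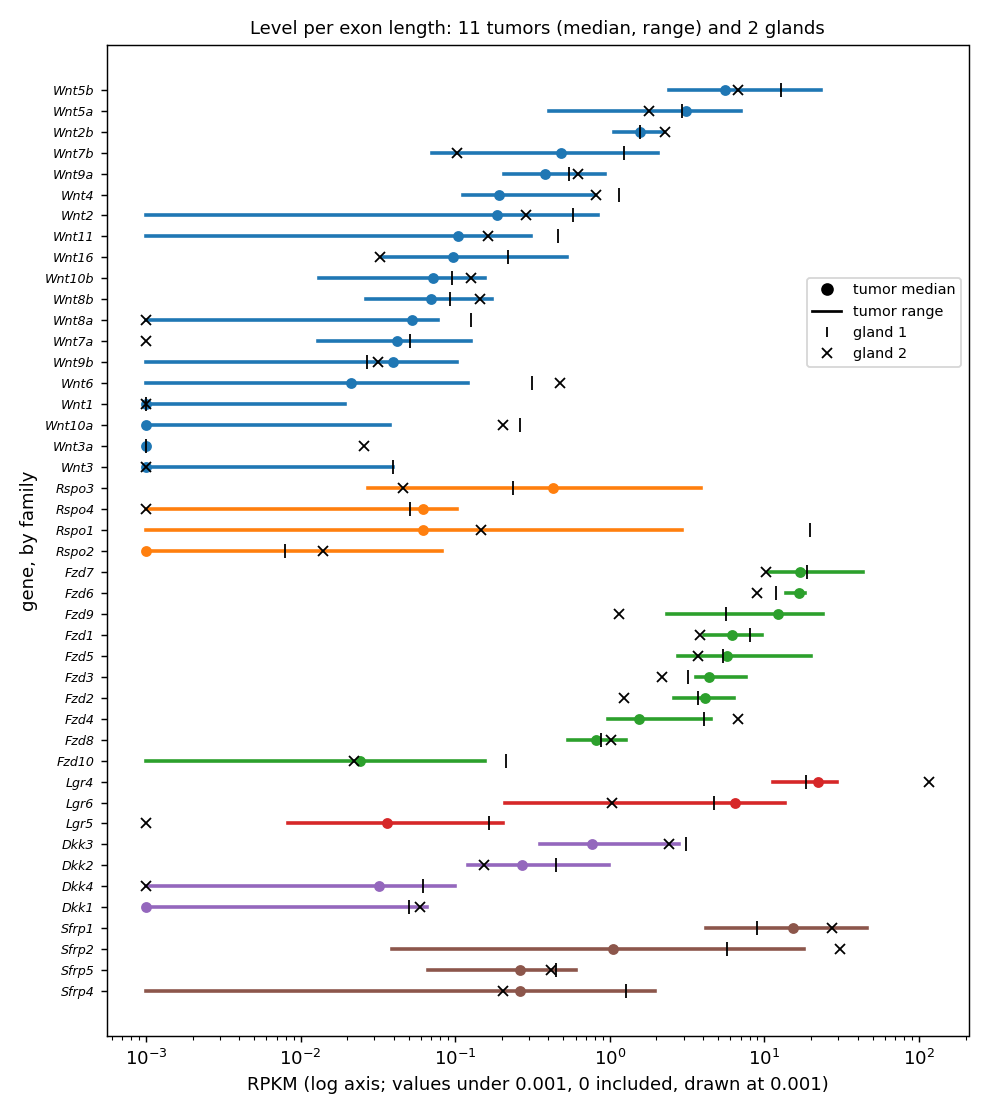
Level of each of the 44 genes per exon length (RPKM, log axis), with the median and range over 11 tumors and the 2 glands marked separately. Lgr4 has the highest tumor median (22.1 RPKM), and most Wnt genes lie below 1 RPKM.

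Every Wnt gene encodes the short loop that carries the lipid, Cys-His-Gly, any residue, Ser-Gly-Ser-Cys, whose first serine is acylated by Porcn. The loop was found by its codons in the GENCODE transcripts (GRCm38) of 19 of 19 Wnt genes, in 17 different DNA versions among the 18 genes whose sequence was compared. Its coding strand is shown for the 5 ligands with a tumor median of 1 CPM or more, 5′ to 3′, with the codon of the acylated serine in capitals:
Wnt5b, minus strand of chr6:119433800-119433823: tgtcacggagtcTCCgggtcctgc
Wnt5a, plus strand of chr14:28522515-28522538: tgtcatggagtgTCTggctcctgt
Wnt2b, minus strand of chr3:104951220-104951243: tgtcacggtgtgAGTggctcctgt
Wnt7b, minus strand of chr15:85537812-85537835: tgtcacggtgtgTCAggctcctgt
Wnt9a, plus strand of chr11:59330926-59330949: tgccatggtgtgTCTggctcctgc
The serine is residue 236 of 372 in Wnt5b and residue 244 of 380 in Wnt5a. These stretches differ between the 5 genes even where the protein is constrained, and no 2 of the 44 genes shared an identical transcript run longer than 89 bases. That longest run was between Wnt4 and Lgr5, so part of the reads of these 2 genes could be ambiguous.

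**Figure D2:**
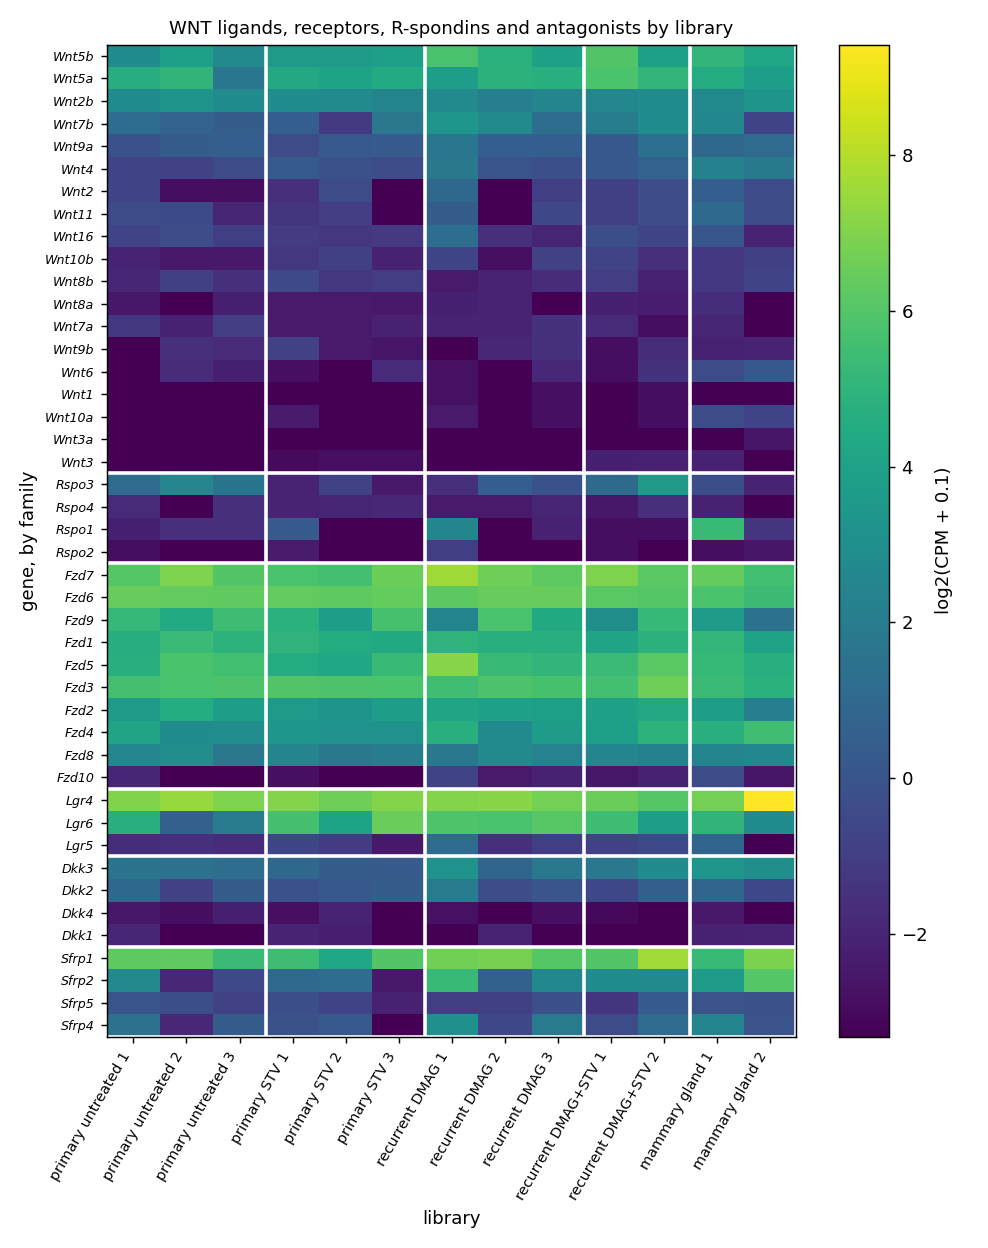
log2(CPM + 0.1) of the 44 genes (rows, by family) in the 13 libraries (columns, by group). Recurrent DMAG tumor 1 is the brightest tumor column for Rspo1, Sfrp2, Sfrp4 and Fzd5, and recurrent DMAG+STV tumor 2 for Rspo3 and Sfrp1.

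Single tumors with outlying expression were found by a descriptive rule, which asked for 1 CPM or more in the highest tumor, at least 4 times the median of the other 10 tumors and at least 2 times the next highest tumor. Of the 34 members tested among the tumors, 29 reached 1 CPM in some tumor and 8 of these stood alone in 1 tumor. Across all genes the rule was met by 5.74% of those that reached 1 CPM. All 8 members had a median under 3 CPM in the other tumors, as did 14 of the 29, and among all genes at such low levels the share was 18.7%. The highest tumor was recurrent DMAG tumor 1 for 7 of the 8 members and recurrent DMAG+STV tumor 2 for the other. Recurrent DMAG tumor 1 also held 57.6% of the outliers of all genes, 499 of 866.

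The member that stood alone in recurrent DMAG+STV tumor 2 was the R-spondin Rspo3 (chr10:29452416-29535867, minus strand). It measured 2.07, 5.89 and 3.03 CPM in the 3 primary untreated tumors, 0.138, 0.479 and 0.0844 CPM in the primary STV tumors, 0.232, 1.32 and 0.839 CPM in the recurrent DMAG tumors, and 1.99 and 12.0 CPM in the recurrent DMAG+STV tumors. The glands held 0.727 and 0.143 CPM. Recurrent DMAG+STV tumor 2, with 588 counts, was 11.1 times the median of the other tumors and 2.03 times the next, primary untreated tumor 2. That tumor also had the highest summed skeletal muscle markers among the tumors (6 genes, 1362 CPM, others 0.648 to 841), the highest basal and myoepithelial sum (7 genes, 270 CPM, others 21.7 to 213) and the highest keratinocyte and hair follicle sum (7 genes, 17.4 CPM, others 2.59 to 7.13). All 6 muscle and all 7 basal markers were above 3 counts there, while 2 of the 7 keratinocyte and hair follicle markers were not. The adipocyte sum of that tumor (89.3 CPM) was also the highest, just above the 86.8 CPM of primary untreated tumor 1. Its fibroblast and stroma sum (1913 CPM) was second to recurrent DMAG tumor 1. The part of any of these cells in the Rspo3 level was not tested. In primary untreated tumor 2, the second highest for Rspo3, the skeletal muscle sum was 1.04 CPM and the basal sum 64.7 CPM. Its adipocyte sum was 23.4 CPM and its fibroblast and stroma sum 751 CPM. GENCODE places an exon of the antisense gene Gm48159 over Rspo3, and the strand setting of the counting was not given in the sources used here.

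To show how Rspo3 can be told from its relatives, the best-matching 60-base coding stretch of the 4 R-spondin genes was taken from the GENCODE transcripts (GRCm38). The 26 bases identical in all 4 genes are in capitals, 5′ to 3′ on the coding strand:
Rspo1, plus strand of chr4:125007164-125007223: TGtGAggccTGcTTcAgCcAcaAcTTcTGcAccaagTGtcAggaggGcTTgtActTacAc
Rspo2, minus strand of chr15:43078166-43078225: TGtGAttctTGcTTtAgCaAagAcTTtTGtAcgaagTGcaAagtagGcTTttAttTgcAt
Rspo3, minus strand of chr10:29504654-29504713: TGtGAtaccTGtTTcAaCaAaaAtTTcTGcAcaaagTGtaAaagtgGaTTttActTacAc
Rspo4, plus strand of chr2:151868585-151868644: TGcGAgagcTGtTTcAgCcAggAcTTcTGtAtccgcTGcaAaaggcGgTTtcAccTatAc
Even in this stretch Rspo3 shared only 39 to 45 of 60 bases with each relative.

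The R-spondin Rspo1 (chr4:124986430-125009099, plus strand) stood alone in recurrent DMAG tumor 1. It measured 0.119, 0.245 and 0.241 CPM in the primary untreated tumors, 1.17, 0 and 0 CPM in the primary STV tumors, 5.67, 0 and 0.126 CPM in the recurrent DMAG tumors, and 0.0391 and 0.0408 CPM in the recurrent DMAG+STV tumors. Only recurrent DMAG tumor 1 and primary STV tumor 1 were above 0.245 CPM, and the former was 70.8 times the median of the other tumors. Rspo2 had at most 18 counts in a tumor, again in recurrent DMAG tumor 1 (0.417 CPM). Rspo4 stayed at or under 0.245 CPM in all 11 tumors.

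The ligands Wnt2, Wnt4 and Wnt16 also stood alone in recurrent DMAG tumor 1. Wnt2 reached 1.90 CPM there against 0 to 0.693 CPM in the other tumors, which was 5.84 times their median. Wnt16 reached 2.32 CPM against 0.147 to 0.743 CPM, 5.87 times the median. Wnt4, a progesterone-responsive ligand of the mammary gland, reached 3.38 CPM against 0.469 to 1.51 CPM, 4.33 times the median. These are low levels, and no ligand that was abundant in the other tumors stood alone here.

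The receptor Lgr5, a marker of stem cells in several epithelia, measured 2.08 CPM in recurrent DMAG tumor 1 and 0.0844 to 0.591 CPM in the others, 6.78 times their median. The antagonist Sfrp2 measured 39.0 CPM there against 0.0844 to 7.12 CPM elsewhere, 18.2 times the median. Sfrp4 measured 8.20 CPM against 0 to 3.67 CPM, 8.76 times the median. The 7 outlying levels lay in the tumor with 5787 CPM of fibroblast and stroma markers, all 8 of which were above 3 counts. Its basal sum was 213 CPM, its endothelial sum (5 genes) 244 CPM and its leukocyte sum (4 genes) 156 CPM, and the latter 2 were the highest of the 11 tumors. Its luminal epithelial sum (6 genes, 2966 CPM) and its milk protein sum (6 genes, 19709 CPM) were the highest of the 11 tumors as well. The part of any of these cells in the 7 outlying levels was not tested. Without this tumor, 3 members stood alone, Rspo3 and Wnt5b in recurrent DMAG+STV tumors and Rspo1 in primary STV tumor 1.

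Other than Rspo3, the genes named above as MMTV targets stayed under 1 CPM in every tumor, and so did Wnt3a. Wnt1 and Wnt3a had 3 counts or fewer in all 13 libraries, and Wnt3 had at most 6 counts in a tumor. Wnt10b measured 0.0447 to 0.533 CPM in the tumors, with 0.323 and 0.428 CPM in the glands.

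A second rule, chosen after the values were seen, asked for 1 tumor at no more than 1/4 of the median of the other 10, with the next lowest at least 2 times higher. It was met by 4 of the 22 members with a median of at least 1 CPM, against 4.00% of all such genes. That share covers all levels from 1 CPM up and is not matched to the levels of the members. Lgr6, an R-spondin receptor, fell to 1.43 CPM in primary untreated tumor 2, where the other 10 tumors had a median of 47.5 CPM and a next lowest value of 3.79 CPM. Wnt5a fell to 3.15 CPM in primary untreated tumor 3 against 13.7 to 55.5 CPM in the others. Wnt7b fell to 0.348 CPM (16 counts) in primary STV tumor 2, and Sfrp4 was at 0 in primary STV tumor 3. Their medians in the other 10 tumors were low, with 2.80 CPM for Wnt7b and 1.17 CPM for Sfrp4. The 4 low values thus lay in 4 different primary tumors. Wnt5a, Wnt7b and Sfrp2 each share exonic bases with an annotated antisense gene (Gm2670, AU022754 and Gm26771), and their reads could not be told apart without a strand setting.

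Against the 2 mammary glands, the 11 tumors (mean of the 4 tumor group means) differed in 5 of the 37 members tested, 1 higher and 4 lower, by edgeR's quasi-likelihood test at an adjusted p under 0.05. This share lies close to that of all genes, of which 10.4% were called. The 5 genes were the receptor Fzd6, the ligands Wnt4 and Wnt10a, the R-spondin Rspo1 and the receptor Lgr4. DESeq2 called 6 members (Dkk3, Fzd3, Fzd4, Fzd6, Lgr4 and Wnt4) against 19.1% of all genes. Limma voom called 5 (Dkk3, Fzd6, Wnt4, Wnt6 and Wnt10a) against 8.83%. Only Fzd6 and Wnt4 were called by edgeR, DESeq2 and limma voom alike, and Rspo1 was called by edgeR alone. Dkk3, called by DESeq2 and limma voom, missed the limit in edgeR (adjusted p = 0.0536). The groups did not overlap for 5 of the 37 members, against 11.5% of all genes.

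Fzd6 (chr15:39006034-39038188, plus strand) was the only member called higher. It measured 66.0 to 88.7 CPM in the 11 tumors (median 80.8) and 57.0 and 42.8 CPM in the glands. The groups did not overlap, and the log2 difference was 0.66 (SE 0.13, adjusted p = 0.0131). Its highest tumor was 1.34 times its lowest. Without gland 2 the log2 difference was 0.55 and was not called (adjusted p = 0.0771 by edgeR). The antisense gene Gm26704 overlaps it on an exon.

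Wnt4 (chr4:137277489-137299726, plus strand) measured 0.469 to 3.38 CPM in the tumors (median 0.805) and 4.79 and 3.43 CPM in the glands. The highest tumor was recurrent DMAG tumor 1, just below gland 2. Wnt4 fell by 2.03 on the log2 scale (SE 0.45, adjusted p = 0.0194). Wnt10a (chr1:74791516-74804179, plus strand) had 32 and 14 counts in the glands and 0 to 4 counts in each tumor. The groups did not overlap, and the fitted log2 difference was -5.04 (SE 1.05, adjusted p = 0.0219), which at these counts depends on the fit. For both ligands the call was lost when gland 2 was left out (adjusted p = 0.0984 for Wnt4 and 0.110 for Wnt10a), and for Wnt4 also without gland 1 (0.0661).

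The calls for Rspo1 and Lgr4 each rested on 1 gland. Rspo1 measured 38.2 CPM in gland 1 and 0.285 CPM in gland 2, which lay within the tumor range of 0 to 5.67 CPM. Its log2 difference was -6.08 (SE 1.57, adjusted p = 0.0362) and became 0.018 without gland 1. Lgr4 (chr2:109917647-110014257, plus strand) measured 685 CPM in gland 2 and 109 CPM in gland 1, with 67.2 to 172 CPM in the tumors. Its log2 difference was -1.78 (SE 0.40, adjusted p = 0.0219) and became 0.16 without gland 2. Gland 2 is the library with the high milk protein sum, and gland 1 had the highest leukocyte sum of all libraries, 356 CPM. Adipocyte markers (6 genes) summed to 783 and 656 CPM in the glands and 5.31 to 89.3 CPM in the tumors, and basal markers to 323 and 917 CPM in the glands and 21.7 to 270 CPM in the tumors. The part of these cells in the 5 differences was not tested.

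**Figure D3:**
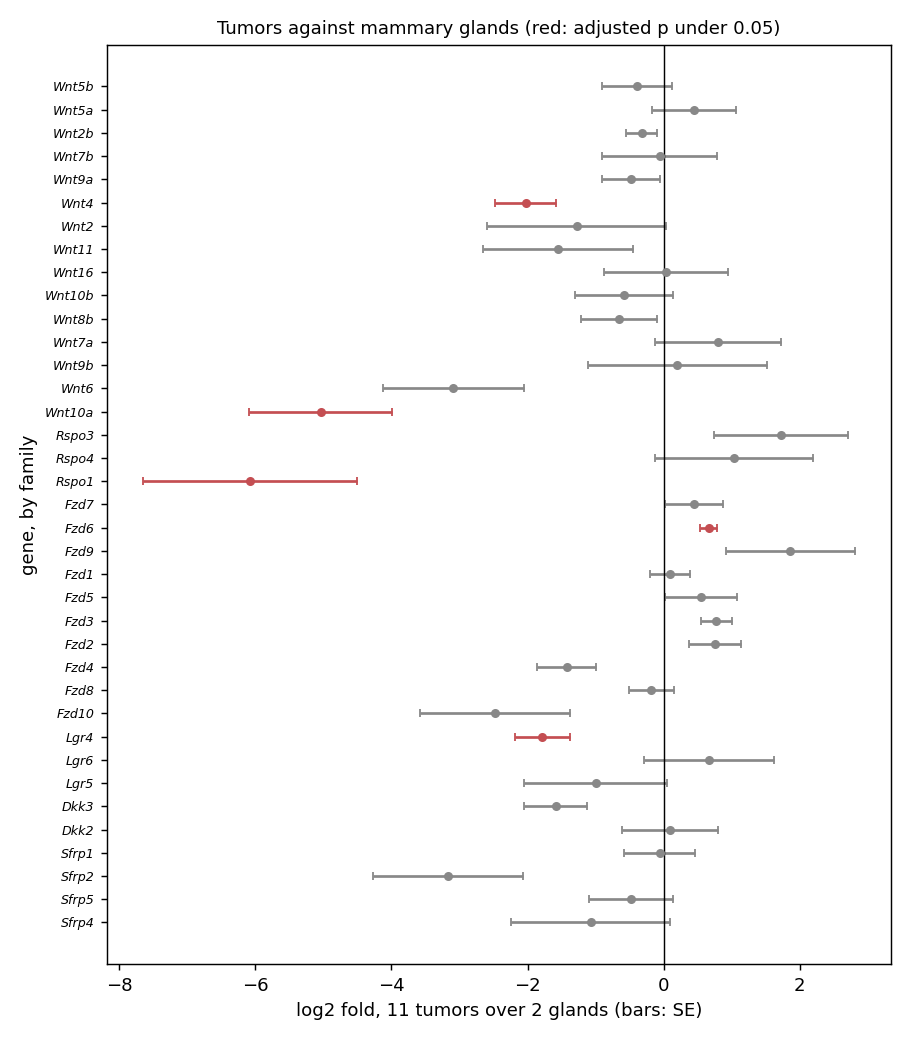
log2 difference between the 11 tumors and 2 glands for the 37 tested members, with the standard error of each fit. The 5 called members are in red, with Fzd6 (0.66) to the right of 0 and Wnt4, Wnt10a, Rspo1 and Lgr4 to the left.

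Between the tumor groups edgeR called none of the 34 members tested in any of 6 comparisons, and 0% of all genes in each. Limma voom likewise called 0 members and 0% of genes. DESeq2 called Rspo3 in 4 comparisons and Wnt5b and Wnt7b in 1. With 2 or 3 tumors a group, individual tumors are the replicates. The edgeR p-values set each difference against a spread within groups that was estimated over the 11 tumors together.

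Primary STV tumors were compared with primary untreated tumors to describe levels with and without STV before any 17-DMAG. An unadjusted p under 0.05 was seen for 2 of 34 members, against 3.76% of all genes. The groups did not overlap for 3 members (Rspo3, Dkk3 and Wnt16, all lower with STV), against 10.8% of all genes. Rspo3 showed the largest difference, with all 3 STV tumors at or under 0.479 CPM and all 3 untreated tumors at or above 2.07 CPM. Its log2 difference was -3.97 (SE 0.97, adjusted p = 0.9998 by edgeR). DESeq2 gave an adjusted p of 0.00983 and called 0.102% of all genes here. The endothelial marker sum was also lower with STV, 62.0 to 94.2 CPM against 98.3 to 122 CPM in the untreated tumors. Fibroblast and stroma sums overlapped, with 281 to 691 CPM and 429 to 965 CPM. The part of these cells in the Rspo3 difference was not tested. The receptor Lgr6 (chr1:134983301-135105276, minus strand) measured 25.1, 1.43 and 3.79 CPM in the untreated and 50.8, 16.9 and 92.3 CPM in the STV tumors. The groups overlapped, since primary untreated tumor 1 exceeded primary STV tumor 2, and the log2 difference was 2.39 (SE 0.98, adjusted p = 0.9998). It became 4.34 without primary untreated tumor 1.

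Recurrent DMAG tumors were compared with primary untreated tumors to follow regrowth without STV. An unadjusted p under 0.05 was seen for 6 of 34 members, against 9.69% of all genes. DESeq2 called none of the members and 0.365% of all genes. The groups did not overlap for 6 members, 4 higher (Wnt5b, Wnt4, Lgr6 and Wnt9a) and 2 lower (Rspo3 and Wnt2b), against 15.1% of all genes. Wnt5b (chr6:119432531-119544347, minus strand) measured 7.23, 14.3 and 6.44 CPM in the untreated and 54.2, 28.6 and 15.8 CPM in the recurrent tumors. Every recurrent tumor was above every untreated one, and the log2 difference was 1.80 (SE 0.58, adjusted p = 0.509). Wnt4 measured 0.518, 0.469 and 0.682 CPM against 3.38, 0.893 and 0.756 CPM. Its log2 difference of 1.57 (SE 0.59, adjusted p = 0.509) became 0.57 without recurrent DMAG tumor 1. Lgr6 was 54.9 to 69.8 CPM in the 3 recurrent tumors, all above the highest untreated tumor at 25.1 CPM.

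Recurrent DMAG+STV tumors were compared with primary STV tumors to follow regrowth under STV. An unadjusted p under 0.05 was seen for 6 of 34 members, against 10.1% of all genes. The groups did not overlap for 14 members, 12 of them higher in the recurrent tumors, but with 2 tumors against 3 this also held for 35.3% of all genes. Rspo3 was 1.99 and 12.0 CPM in the recurrent tumors and at most 0.479 CPM in the primary STV tumors. The log2 difference was 4.89 (SE 1.04, adjusted p = 0.288 by edgeR) and became 3.08 without recurrent DMAG+STV tumor 2. DESeq2 gave an adjusted p of 0.000184 and called 2.10% of all genes. The antagonist Sfrp1 measured 65.4 and 200 CPM against 43.4, 18.4 and 63.7 CPM. The lower recurrent tumor lay just above primary STV tumor 3, and the log2 difference was 1.67 (SE 0.56, adjusted p = 0.412). It became 0.64 without recurrent DMAG+STV tumor 2. Cell content also differed between these groups. Fibroblast and stroma markers summed to 1442 to 1913 CPM in the recurrent DMAG+STV tumors and 281 to 691 CPM in the primary STV tumors. Leukocyte markers summed to 79.8 to 99.6 CPM and 49.8 to 60.6 CPM. The sums of the other marker lists overlapped. The part of these cells in the differences was not tested.

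The recurrent tumors themselves were compared with and without STV. An unadjusted p under 0.05 was seen for 3 of 34 members, against 7.84% of all genes. Non-overlapping groups were seen for 5 members, against 21.5% of all genes. Rspo3 was higher in both DMAG+STV tumors than in the 3 DMAG tumors, by 3.14 on the log2 scale (SE 0.96, adjusted p = 0.434 by edgeR). Without recurrent DMAG+STV tumor 2 the difference was 1.32. DESeq2 gave an adjusted p of 0.0461 with 1.92% of all genes called. Lgr4 measured 93.8 and 67.2 CPM in the DMAG+STV tumors and 133, 144 and 109 CPM in the DMAG tumors. It was lower in both, with a log2 difference of -0.67 (SE 0.23, adjusted p = 0.493).

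Averaged over both water arms, the 5 recurrent tumors were compared with the 6 primary tumors. An unadjusted p under 0.05 was seen for 7 of 34 members, 6 of them higher in recurrent tumors, and for 13.6% of all genes. The median log2 difference was 0.73 over the 34 members and 0.0018 over all genes. Wnt5b was the 1 member whose values did not overlap, against 1.34% of all genes. It measured 54.2, 28.6, 15.8, 61.4 and 14.9 CPM in the recurrent tumors and 6.44 to 14.7 CPM in the primary tumors, so that the lowest recurrent and the highest primary tumor nearly met. Its log2 difference was 1.68 (SE 0.42, adjusted p = 0.287 by edgeR), and it became 1.02 without recurrent DMAG+STV tumor 1. Wnt7b (a ligand of the β-catenin branch in several tissues) measured 10.1, 6.41, 2.31, 4.16 and 7.36 CPM in the recurrent tumors and 0.348 to 3.25 CPM in the primary ones. The groups overlapped, since primary STV tumor 3 exceeded recurrent DMAG tumor 3, and the log2 difference was 1.85 (SE 0.55, adjusted p = 0.297). DESeq2 called both ligands (adjusted p = 0.00897 for Wnt5b and 0.0333 for Wnt7b) and 2.72% of all genes. The stromal sum was 281 to 965 CPM in the primary tumors and 359 to 5787 CPM in the recurrent tumors, and its part in these differences was not tested.

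The difference between the 2 recurrence effects, with STV minus without, was tested directly, and 2 of 34 members had an unadjusted p under 0.05, against 7.84% of all genes. For Rspo3 the effect was downward without STV, where each recurrent DMAG tumor was below each untreated tumor, and upward with STV. The log2 difference between the effects was 7.11 (SE 1.36, adjusted p = 0.435 by edgeR). DESeq2 gave an adjusted p of 8.69e-05 and called 1.18% of all genes. Lgr6 went the other way, with a log2 difference of -3.46 (SE 1.47, adjusted p = 0.620) that became -5.41 without primary untreated tumor 1. It was 44.3 and 14.0 CPM in the recurrent DMAG+STV tumors, which overlapped the 16.9 to 92.3 CPM of the primary STV tumors. The comparisons share groups, and their values for Rspo3 and Lgr6 are therefore not independent of each other.

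**Figure D4:**
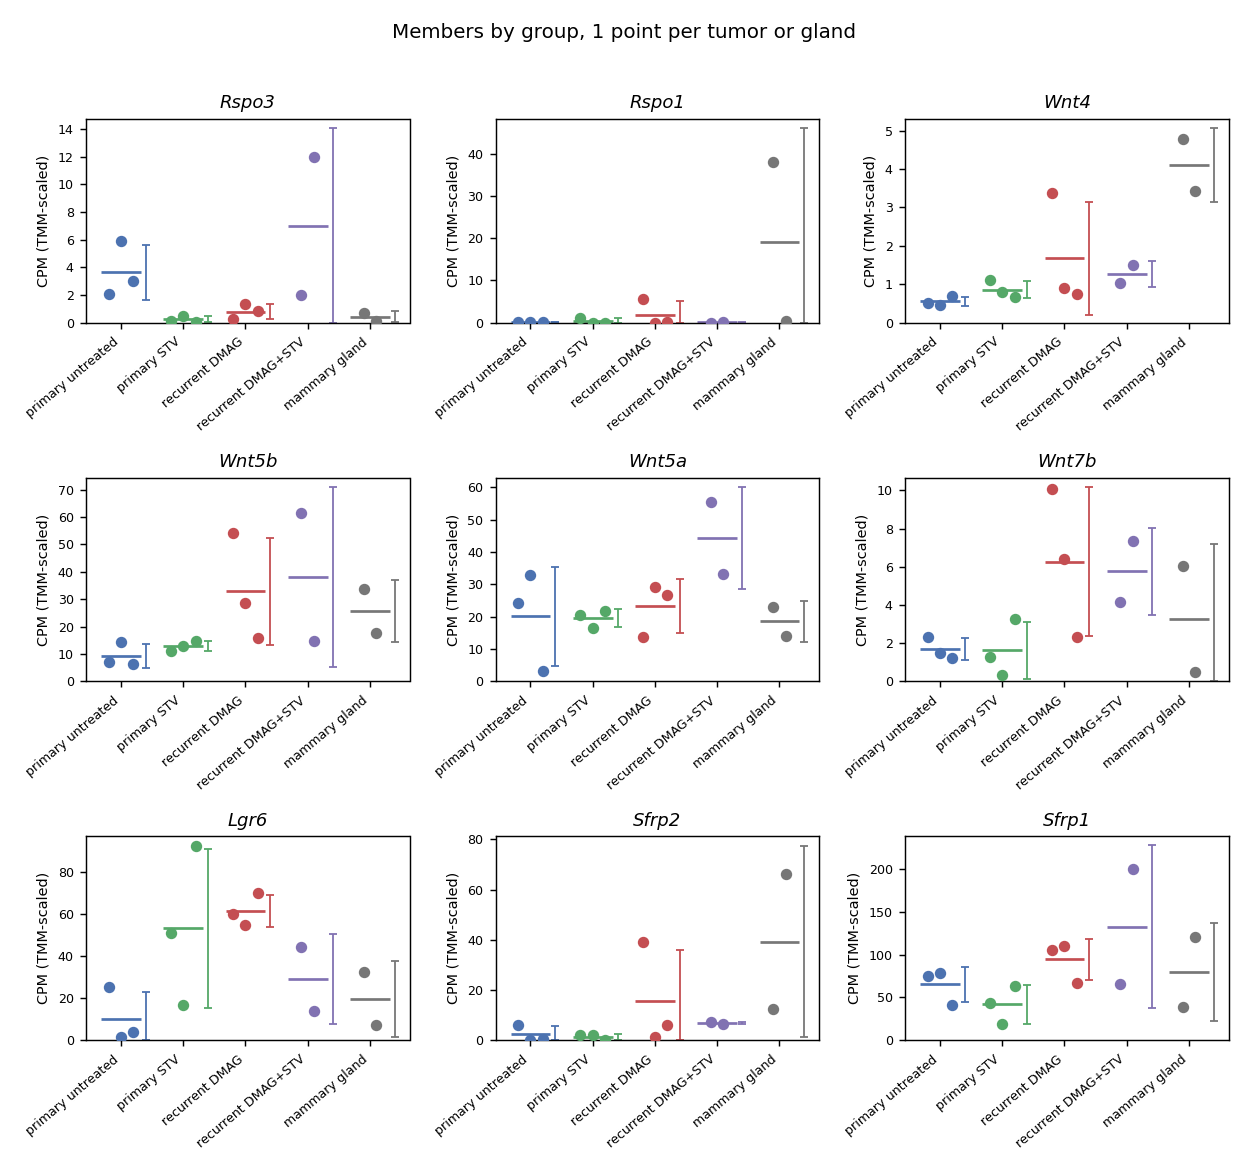
CPM of 9 members by group, 1 point per tumor or gland, with the group mean (line) and SD (bar at the side, cut at 0). Rspo3 is at or under 0.479 CPM in the 3 primary STV tumors and at 12.0 CPM in 1 recurrent DMAG+STV tumor, and Wnt5b is higher in all 5 recurrent than in all 6 primary tumors.

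The wider pathway list held 51 genes for co-receptors, signal transducers, antagonists and targets. Against the glands, 2 of the 48 tested were called higher, the co-receptors Ryk and Lrp5, and 3 lower, the transcription factors Tcf7 and Tcf7l2 and the feedback inhibitor Nkd1, where 10.4% of all genes were called. For Tcf7 (log2 difference -3.33) the direction rested on gland 1, with 36.2 CPM, since gland 2 with 1.11 CPM lay within the 0.805 to 3.40 CPM of the tumors. Without gland 1 its difference was 0.78 and was not called (adjusted p = 0.460 by edgeR). Gland 1 also had the highest leukocyte sum of the 13 libraries, 356 CPM, and its part in the Tcf7 level was not tested. The other 4 calls were lost without gland 2, with adjusted p-values from edgeR of 0.116 for Ryk, 0.194 for Lrp5, 0.367 for Tcf7l2 and 0.232 for Nkd1. Nkd1 was also lost without gland 1 (adjusted p = 0.115). None of the 46 tested was called between tumor groups by edgeR, and an unadjusted p under 0.05 was seen for 2 to 6 of them per comparison, against 3.76% to 13.6% of all genes.

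Of 10 feedback targets of β-catenin signaling, 8 were tested. Notum and Sp5 were not, with at most 0.0815 CPM in a tumor. Axin2, the most general of these targets, ranged from 0.550 to 3.87 CPM in the tumors and measured 12.9 and 2.14 CPM in the glands. Nkd1 was called lower than in the glands (0.348 to 3.79 CPM in the tumors, 3.17 and 2.71 CPM in the glands, log2 difference -1.58, SE 0.44, adjusted p = 0.0448). Primary untreated tumor 2, at 3.79 CPM, lay above both glands. The ubiquitin ligases Znrf3 and Rnf43, which R-spondins restrain, were abundant, with 27.9 to 50.3 CPM and 40.7 to 111 CPM in the tumors.

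Recurrent DMAG tumor 1 was again the extreme tumor for several targets. It was the highest tumor for Lef1 with 74.8 CPM (lowest tumor 1.02), Wisp1 with 31.3 CPM, Apcdd1 with 4.58 CPM and Axin2 with 3.87 CPM, and the lowest for Znrf3 and Rnf43. Lef1 and Wisp1 are also expressed by stromal and immune cells, and the part of those cells in this tumor's values was not tested. In recurrent DMAG+STV tumor 2, where Rspo3 was highest, Axin2 measured 3.36 CPM, Lef1 6.83 CPM and Nkd1 0.693 CPM. Axin2 was thus second to recurrent DMAG tumor 1 there, as were Apcdd1 with 3.16 CPM and Wisp1 with 11.3 CPM. Tnfrsf19 with 5.40 CPM and Rnf43 with 76.0 CPM were the second lowest of the tumors. Lef1, Nkd1 and Znrf3 (44.3 CPM) lay further inside the range of the other tumors. Tnfrsf19 was highest in primary untreated tumor 3 with 47.2 CPM, against 2.85 to 20.1 CPM in the other 10.

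**Figure D5:**
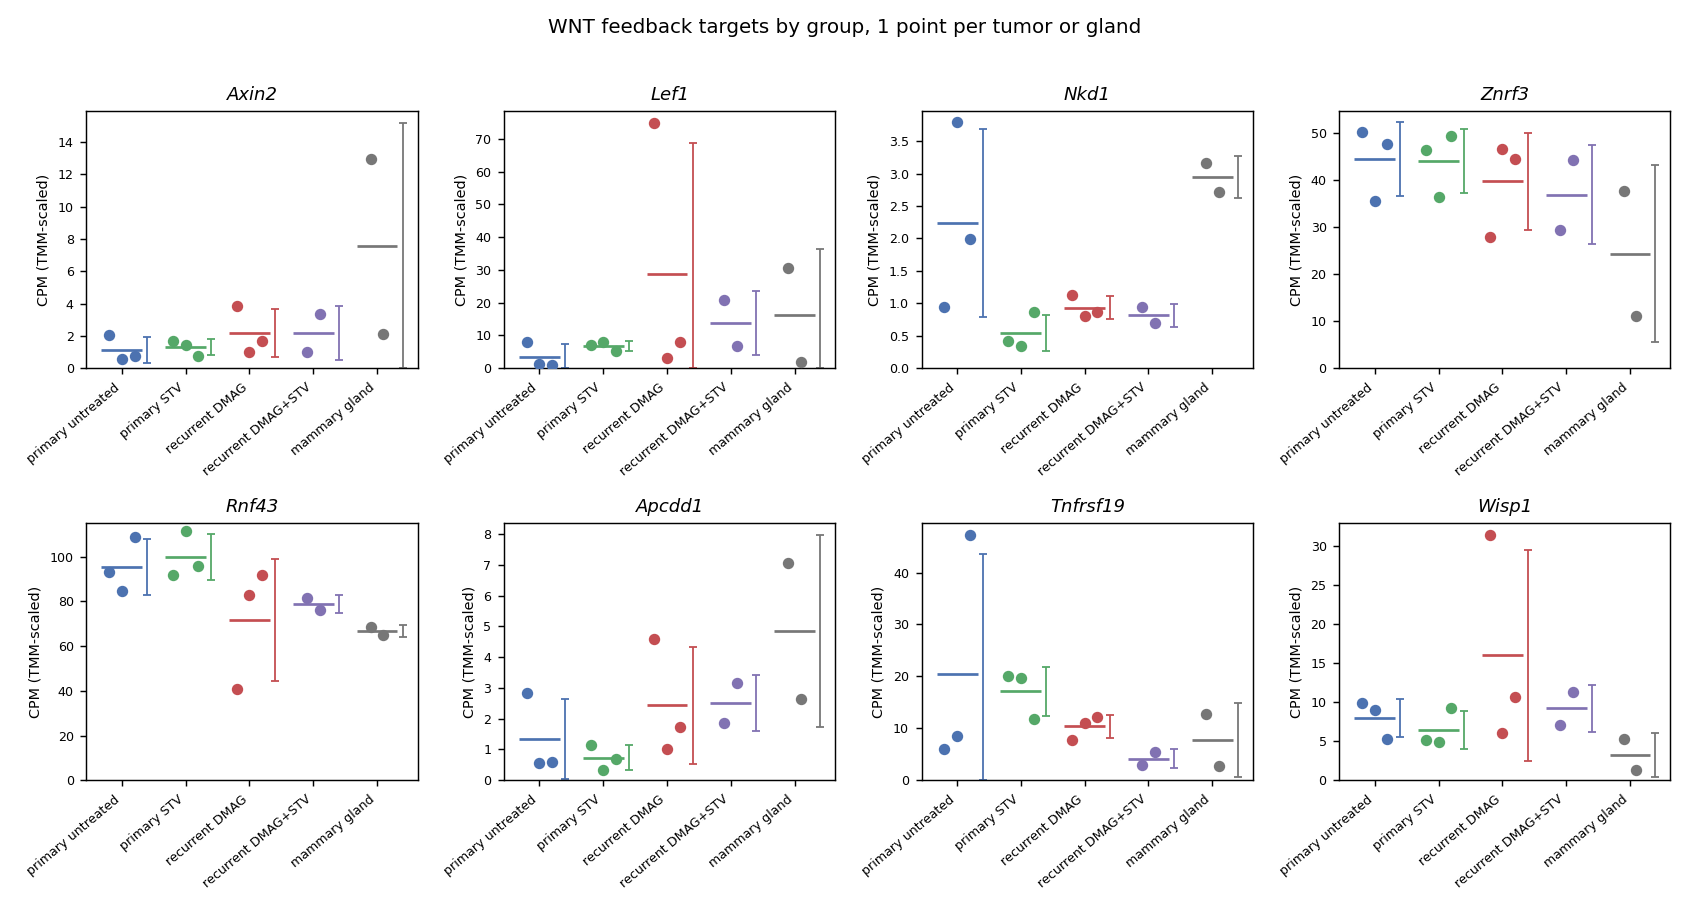
CPM of the 8 tested feedback targets by group, 1 point per tumor or gland, with the group mean (line) and SD (bar at the side, cut at 0). Recurrent DMAG tumor 1 is the highest tumor for Lef1 (74.8 CPM) and Wisp1 (31.3 CPM) and the lowest for Rnf43 (40.7 CPM).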

How the data were processed

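Per the labels, RNA from frozen tissue was depleted of ribosomal RNA and made into dUTP-marked libraries, and the submitters' processing notes name bcl2fastq 2.20, STAR, featureCounts (Subread 1.6.2) and the mm10 and GRCm38 builds. The authors deposited 1 table of raw counts per gene for the 13 libraries. The strand setting and the handling of multi-mapped reads were not given in the sources used here. Of the values from 1 to 10 in the table, 76.6% were even. Whether both mates of a read pair were counted was not tested. If they were, 1 fragment gives 2 counts, and the printed counts and the floor of 3 counts stand for fewer fragments.

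The counts were tested with edgeR 4.0.16 in R 4.3.3 (TMM factors, filterByExpr, robust quasi-likelihood fit, 1 mean per group, Benjamini-Hochberg adjustment over all genes tested). The comparison with the glands used 13 libraries and 17135 genes, with a biological coefficient of variation of 0.431. The 6 comparisons among tumors used 11 libraries and 16870 genes, with a coefficient of 0.402. DESeq2 1.42.0 and limma 3.58.1 (voom) were run as alternatives, together with other scaling, no filter and leaving out each library. The filter kept 37 and 34 of the 44 members. CPM were computed with TMM-scaled library sizes, and RPKM with the union exon length of GENCODE M21 (GRCm38), in which all 44 members were found. A floor of 3 counts was used, and floors cover counting error only. The scripts were tested on simulated data. Genes were named by a rule: members standing alone in 1 tumor, called members, the 2 smallest p-values of a comparison with no call, the leading member of each family, and Wnt1, Wnt3, Wnt4, Wnt10b, Rspo2, Rspo3, Lgr5 and Lgr6. The members, the lists and the rules were chosen with earlier results of these data known. No library pair in a group agreed within sampling noise. The 15 same-numbered pairs of tumors from different groups had correlations of their deviations from -0.262 to 0.226, with 3 over 0.1, so numbers were not taken to pair samples.

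Of the 11 marker lists, the hormone-sensing luminal genes (4) summed to 156 to 296 CPM in the tumors and 218 and 434 CPM in the glands, and the peripheral nerve genes (4) to 66.9 to 87.3 CPM in the tumors and 93.6 and 83.7 CPM in the glands.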

Additional observations from a re-analysis of the deposited data

Results flagged for a closer look

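Rspo3 was picked out because its 2 recurrence effects ran in opposite directions. Every recurrent DMAG tumor (0.232 to 1.32 CPM) was below every primary untreated tumor (2.07 to 5.89 CPM), while both recurrent DMAG+STV tumors (1.99 and 12.0 CPM) were above every primary STV tumor (0.0844 to 0.479 CPM). Groups that did not overlap were seen for 15.1% of all genes without STV and for 35.3% with STV. How many genes did so in opposite directions was not counted. The test of the difference itself, for a gene picked out by this pattern, gave a log2 value of 7.11 (SE 1.36, edgeR adjusted p = 0.435). The adjusted p ranged from 8.69e-05 with DESeq2 to 0.9999 over the alternatives.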

How the results depend on the processing

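With 2 glands and 2 or 3 tumors per group, 1 library could decide a call. Of 311 values of single members under the alternatives, 278 kept their direction and their side of the threshold, 24 lost and 7 gained significance, and 2 reversed (Lgr4 0.16 without gland 2 and Rspo1 0.018 without gland 1, with lowest values of -2.53 and -7.88 when another library was left out). All 24 losses and 2 reversals were values of the 5 members called against the glands. Values not called in the main fit could not lose significance. Rspo1 lost its call in 11 of 19 settings, Wnt10a in 5 of 20, Wnt4 and Lgr4 in 3 of 20 each, and Fzd6 in 2 of 20. DESeq2 gave no adjusted p for Rspo1 against the glands. The number of members called against the glands was 2 with the primary untreated tumors alone (Fzd6 and Wnt4) and ranged from 1 (without gland 2) to 9 (without recurrent DMAG tumor 1) when libraries were left out. Replicate numbers did not pair the samples. With a replicate block the count was 0, and it stayed 0 in the 6 tumor comparisons. DESeq2 called 1 member with STV in primary tumors, 1 in recurrence under STV, 1 with STV in recurrent tumors, 2 in the averaged recurrence and 1 in the difference of effects. Leaving out 1 library moved the counts from 0 to 1 with STV in recurrent tumors (Fzd3) and from 0 to 1 in the difference of effects (Rspo3), both without recurrent DMAG+STV tumor 1. Single outlying tumors numbered 4 at an 8-fold limit and 3 to 8 when 1 tumor was left out, with 3 without recurrent DMAG tumor 1. The cause of these shifts was not tested. Scaling by library totals or DESeq2 size factors left 8 outlying, 4 low and 22 expressed members.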
